A study of Mus musculus with 28 samples.

Results

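The regions described here carried H3K4me3 in mouse embryonic stem (ES) cells and overlapped a region bound by KAP1 by at least 1 bp. There were 1899 such regions among 28066 H3K4me3 regions, and they touched 1920 of 26553 KAP1 regions. The other 26167 H3K4me3 regions are the comparison, with all genes or TEs beside the RNA counts. RNA and hydroxymethylcytosine reads were not used to define the regions. The authors kept peaks above a minimum peak score, so the H3K4me3 peak scores reported below are not independent of that choice. With a reciprocal overlap of 25%, 1500 of the 1899 would remain.

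All cells were J1 ES cells of strain 129S4/SvJae, grown as naive cells in N2B27 medium with LIF and the MEK and GSK3 inhibitors known as 2i, then transduced, selected with puromycin and collected at day 5. RNA-seq compared the Kap1 hairpin (shKAP1) with an empty vector (shEmpty) in wild-type cells (WT, n = 3 libraries each), in cells lacking Dnmt1, Dnmt3a and Dnmt3b (DNMT TKO, n = 3 each) and in cells lacking Tet1, Tet2 and Tet3 (TET TKO, n = 2 each). 5-hydroxymethylcytosine (5hmC) was read by hMeDIP-seq, an immunoprecipitation of 5hmC-bearing DNA, in WT cells in 2 replicates, of which replicate 1 is used here, with 1 library and 1 input for each hairpin. The labels and files of replicate 2 disagree on which library is the input, so it enters no comparison. H3K4me3 was read by ChIP-seq of WT cells in 2 replicates. The authors took KAP1 and H3K9me3 regions from earlier experiments. The labels name no clone and give 1 line for each genotype, so line and genotype cannot be told apart. The methods describe the RNA replicates as independent experiments.

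KAP1, encoded by Trim28, is a co-repressor that KRAB zinc finger proteins bring to DNA, where it recruits SETDB1, the enzyme that deposits H3K9me3, and helps to keep DNA methylated. Its best known targets in ES cells are retrotransposons and imprinting control regions (ICRs), which are methylated on the copy inherited from a single parent. H3K4me3 by contrast marks the start of transcribed genes and is usually found on DNA without methylation. 5hmC is made from methylated cytosine by the TET enzymes.

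The sequences that the results below turn on are printed here from the mm9 genome, with every CpG, the site of DNA methylation, in capitals. The first pair shows ICRs at which 5hmC was higher in the Kap1 knockdown. The next is the centre of an intergenic region with H3K9me3, which had the largest 5hmC difference among KAP1-bound regions outside the ICRs with at least 50 input reads. The stretches upstream of Lekr1 and Fcgr3 are the promoter sides of regions at genes whose RNA rose, with and without H3K9me3. The last line is the 30-base word found in the most KAP1-bound regions over L1Md_T, the LINE-1 subfamily that lay under the largest share of them.
Airn control region, mm9 chr17:12934748-12935047, plus strand: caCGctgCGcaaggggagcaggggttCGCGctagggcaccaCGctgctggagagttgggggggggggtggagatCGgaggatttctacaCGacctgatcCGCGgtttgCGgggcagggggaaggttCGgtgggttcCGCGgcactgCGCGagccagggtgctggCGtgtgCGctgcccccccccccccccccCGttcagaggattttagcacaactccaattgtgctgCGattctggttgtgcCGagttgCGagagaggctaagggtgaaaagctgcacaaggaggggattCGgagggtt
Peg10 control region, mm9 chr6:4697853-4698152, plus strand: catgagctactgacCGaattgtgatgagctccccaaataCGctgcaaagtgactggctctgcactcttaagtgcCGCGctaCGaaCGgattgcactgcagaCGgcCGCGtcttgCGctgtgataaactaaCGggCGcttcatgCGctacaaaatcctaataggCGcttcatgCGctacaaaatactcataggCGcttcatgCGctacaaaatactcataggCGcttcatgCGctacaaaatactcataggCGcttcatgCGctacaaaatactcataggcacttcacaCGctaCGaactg
Intergenic region with H3K9me3, mm9 chr6:136418459-136418758, plus strand: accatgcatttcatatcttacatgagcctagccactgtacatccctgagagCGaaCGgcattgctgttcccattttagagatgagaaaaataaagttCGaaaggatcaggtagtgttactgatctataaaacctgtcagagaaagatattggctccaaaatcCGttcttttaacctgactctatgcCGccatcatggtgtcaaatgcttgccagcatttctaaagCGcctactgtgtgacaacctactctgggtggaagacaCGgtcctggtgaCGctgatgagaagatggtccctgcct
Upstream of Lekr1, mm9 chr3:65469850-65470149, plus strand: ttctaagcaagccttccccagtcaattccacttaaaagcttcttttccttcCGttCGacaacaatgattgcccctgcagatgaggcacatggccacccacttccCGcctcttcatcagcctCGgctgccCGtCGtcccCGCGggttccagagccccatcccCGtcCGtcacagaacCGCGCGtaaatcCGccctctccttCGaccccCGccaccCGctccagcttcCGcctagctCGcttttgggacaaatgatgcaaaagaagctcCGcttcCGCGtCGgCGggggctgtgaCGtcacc
Upstream of Fcgr3, mm9 chr1:172995067-172995366, minus strand: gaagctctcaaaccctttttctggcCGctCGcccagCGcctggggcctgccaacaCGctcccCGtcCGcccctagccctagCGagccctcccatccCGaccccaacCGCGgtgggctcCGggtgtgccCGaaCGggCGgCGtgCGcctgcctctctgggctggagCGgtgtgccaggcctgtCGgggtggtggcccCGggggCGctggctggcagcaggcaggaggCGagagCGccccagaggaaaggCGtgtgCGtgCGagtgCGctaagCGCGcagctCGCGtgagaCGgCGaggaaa
Commonest 30-base word of L1Md_T regions, first copy at mm9 chr1:4550481-4550510, plus strand: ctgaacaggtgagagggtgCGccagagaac
The 300 bases at the Airn control region held 22 CpGs and those at the Peg10 control region 23, against a median of 20 in the 300 bases around the centre of KAP1-bound H3K4me3 regions and 15 around the others. The hexamer TGCCGC is the sequence that ZFP57, a KRAB zinc finger protein of ICRs, is known to bind when methylated. Counted on both strands as TGCCGC or GCGGCA within 300 bases, it occurred in 14 of the 18 KAP1-bound H3K4me3 regions that overlapped an ICR (77.8%) and in 16.4% of all H3K4me3 regions. The share was 14.2% of KAP1-bound and 16.6% of the other regions, but within each kind of position it was higher for KAP1-bound regions. It was 26.8% against 20.9% at gene starts, 1.83% against 0.728% on L1Md_T, 8.55% against 6.34% on other repeats and 27.7% against 17.1% elsewhere. A match is a description of the letters and not a binding site.

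Trim28 was checked first. In WT cells its RNA was 1991, 1639 and 1627 CPM (counts scaled to the gene reads of each library) with shEmpty and 190, 156 and 149 CPM with shKAP1. Levels in DNMT TKO cells were 2086, 1819 and 1701 CPM against 327, 448 and 506 CPM, and in TET TKO cells 1772 and 1899 CPM against 163 and 168 CPM. The groups did not overlap in any genotype, and the knockdown was least deep in DNMT TKO cells. The fall was -3.41 on the log2 scale in WT (SE 0.16), -2.13 in DNMT TKO (SE 0.15) and -3.47 in TET TKO (SE 0.20), and the effect differed between DNMT TKO and WT by 1.28 (edgeR quasi-likelihood test, adjusted p = 0.0008). A smaller response in DNMT TKO cells below was therefore measured with more Trim28 RNA left, whose part was not tested. The Trim28 start itself lay in a KAP1-bound H3K4me3 region. RNA libraries held between 18108431 and 29373696 reads on genes, and the ES markers were present, with 838 CPM for Pou5f1 ± 2.87 (SD, n = 3) and 1086 CPM for Nanog ± 157 in WT shEmpty cells. RNA from bulk cells cannot separate fewer cells of a type from less RNA per cell.

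KAP1-bound H3K4me3 regions lay on retrotransposons far more often than other H3K4me3 regions. Of the 1899, 771 (40.6%, 95% interval 38.4 to 42.8, exact binomial) overlapped an L1Md_T integrant and lay more than 1000 bp from any gene start. The share was 7.41% among the others (1938 of 26167). A gene start within 1000 bp was found for 660 (34.8%, interval 32.6 to 36.9), against 50.0% of the others. A further 271 (14.3%) had at least 25% of their length on other transposable elements (TEs) and 197 (10.4%) on neither, against 11.4% and 31.1%. These intervals do not overlap between KAP1-bound and other regions, and they cover counting error only. The plot of positions shows the same shares.

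**Figure D1:**
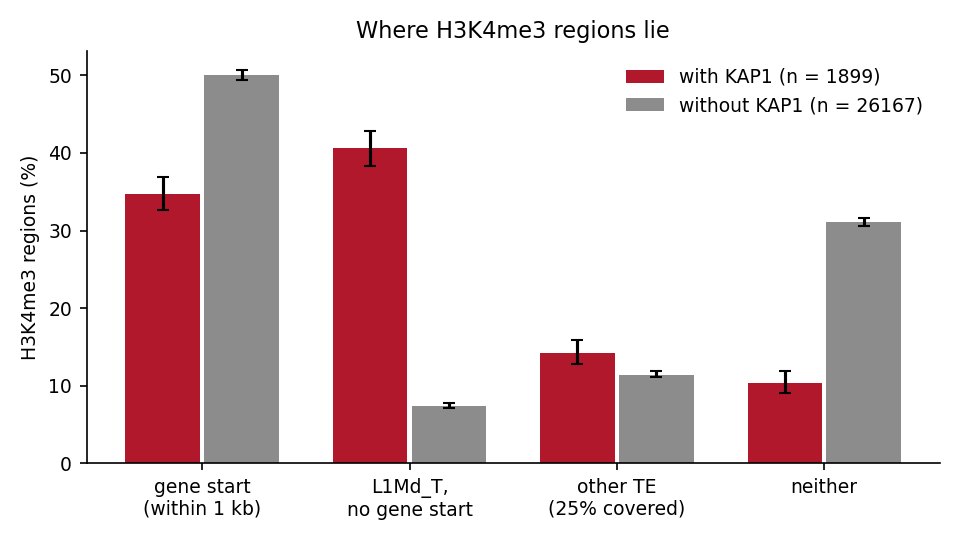
Position of KAP1-bound H3K4me3 regions (n = 1899) and of other H3K4me3 regions (n = 26167). Bars give the percent of regions of each kind at a gene start, on L1Md_T, on another TE or on neither, and lines give exact binomial intervals. The L1Md_T bar is 40.6% for KAP1-bound regions and 7.41% for the others.

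The distance to the nearest gene start had a median of 12334.5 bp for KAP1-bound regions and 948 bp for the others. Those on L1Md_T were 58967 bp away at the median, and 73.8% of their centres were intergenic, with the remainder in introns and none in exons. The H3K4me3 peak sat near the 5′ end of the element, where the L1 promoter lies. On integrants of at least 5 kb, the centre of KAP1-bound H3K4me3 regions lay 437 bp from the 5′ end at the median (quartiles 313 and 582), and the centre of the KAP1 region lay 415 bp from it. KAP1-bound regions overlap a KAP1 region by definition, so the nearness of both centres is no separate result. The other H3K4me3 regions on L1Md_T had their centre at 328 bp. Of all H3K4me3 regions whose largest overlap was L1Md_T, 28.5% were bound by KAP1.

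Endogenous retroviruses were fewer, and the share of them with H3K4me3 that KAP1 bound varied by form. KAP1 bound 23 of the 24 H3K4me3 regions on full IAPLTR1-flanked IAPEz elements, the intracisternal A particles, and 20 of these 23 had H3K9me3. It bound all 21 on one full form of RLTR4, a gammaretrovirus family, and 83.3% of those on a second full form with a split internal part, and all 8 on one merged ETnERV form with ERVB7_1 LTRs. The bound share was 68.8% for RMER12B, 69.2% for RLTR9E, 33.3% for one MMETn form with RLTR13G and 18.5% for the MaLR element MTA_Mm. L1Md_F contributed 24 of 38 and L1Md_Gf 45 of 260, while the short SINE repeats were at the low end, with 38 of 866 for B3. By chromosome, the bound share ran from 3.84% on chromosome 19 to 10.1% on chromosome X among the assembled autosomes and X.

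H3K9me3, the mark that follows KAP1 recruitment, overlapped 342 of the 1899 (18%, interval 16.3 to 19.8) and 95 of the others (0.363%). Of the 342, 329 overlapped the H3K9me3 set that the authors called KAP1-dependent. H3K9me3 was most frequent on repeats. Regions with it made up 26.2% of the L1Md_T class, 32.5% of the other TEs, 8.63% of those on neither and 5.30% of those at gene starts. H3K27me3, the polycomb mark, overlapped 7.95% of KAP1-bound regions and 18% of the others.

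KAP1-bound H3K4me3 regions with H3K9me3 had weaker H3K4me3. Their median peak scores in the 2 replicates were 182 and 325, against 647 and 1150 for those without, on the scale on which MACS writes a peak's significance. The score rises with the width of a peak, and the median width was 1055 bp with and 1483 bp without H3K9me3. At gene starts the KAP1-bound regions were wider (2291 bp) than the other H3K4me3 regions there (1773 bp), and scored higher in both replicates, at 1690 and 3091 against 1078 and 2084.

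5hmC was lowest at gene starts and highest on L1Md_T among regions without KAP1, and was higher on repeats with KAP1 than without. It is given as log2 of the hMeDIP over the input share of reads, so a value of 0 is the level of the input. With shEmpty the median was -0.55 for KAP1-bound regions and -1.56 for the other H3K4me3 regions. At gene starts both stood well below the input, at -1.86 and -1.87. On L1Md_T the KAP1-bound regions stood at 0.26 and the others at -0.18, and on other TEs the gap was wider, at 0.31 against -1.26. The other TEs of the 2 sets are different elements, since KAP1-bound regions on full IAPEz (0.64), RLTR4 (0.77) and L1Md_F (0.76) stood high and those on the SINEs B3 (-1.80) and B3A (-2.44) low. KAP1-bound regions with H3K9me3 stood higher than those without, with a median of 0.61 against -0.88. Only 20.5% of the former but 73.1% of the latter lay below the input. These sets differ in position, since H3K9me3 was most frequent on repeats. Within L1Md_T the medians were 0.74 with and -0.01 without H3K9me3. At gene starts they were -0.73 and -1.92, both below the input. These are single libraries with no replicate to test, so the order of the sets is a description. Another scaling would raise every shEmpty level by 0.30 or 1.28, as described next, and with it the position against the input.

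With the Kap1 hairpin, the median 5hmC difference of these regions in hMeDIP replicate 1 was slightly below that of the other H3K4me3 regions, by -0.12. It was below by only -0.018 among regions of high H3K4me3 peak score in both replicates. This order has no check from hMeDIP replicate 2, whose unassigned libraries could give the reverse, as described at the end. The median difference between shKAP1 and shEmpty was 0.28 for KAP1-bound regions and 0.39 for all H3K4me3 regions, or -0.11 relative to all. Whether the values lay above or below 0 was set by the scaling. A region on chromosome 9 (3000001 to 3038399) with H3K9me3 that the authors called independent of KAP1 lay outside every member. Of the reads summed over all region sets, not of the whole library, it took 35.9% with shEmpty and 22.5% with shKAP1 in the hMeDIP libraries. Leaving it out of the totals moved every difference by -0.37, and scaling to reads in H3K4me3 regions moved it by -0.39. Both move all sets by the same amount and leave the comparison between sets as it is. Differences of sets are therefore given relative to the median of all H3K4me3 regions, and those of single regions, which are not centred, are to be read against 0.39.

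On that scale the KAP1-bound regions at gene starts were at -0.10 and those on L1Md_T at -0.20, against -0.06 and -0.09 for the other H3K4me3 regions there. KAP1-bound regions on neither were at 0.16, against 0.14 for the others, and those with H3K9me3 at -0.14. KAP1 regions with H3K9me3 but without H3K4me3, 14362 of them, were at 0.44. The KAP1 regions that had H3K4me3 as well as H3K9me3 were at -0.08 (n = 352). Of KAP1-bound H3K4me3 regions, 13.5% had at least 2-fold more and 3.06% at least 2-fold less 5hmC, beside 19.7% and 3.08% of all H3K4me3 regions with enough reads. The plot of 5hmC by set shows these levels with both hairpins.

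**Figure D2:**
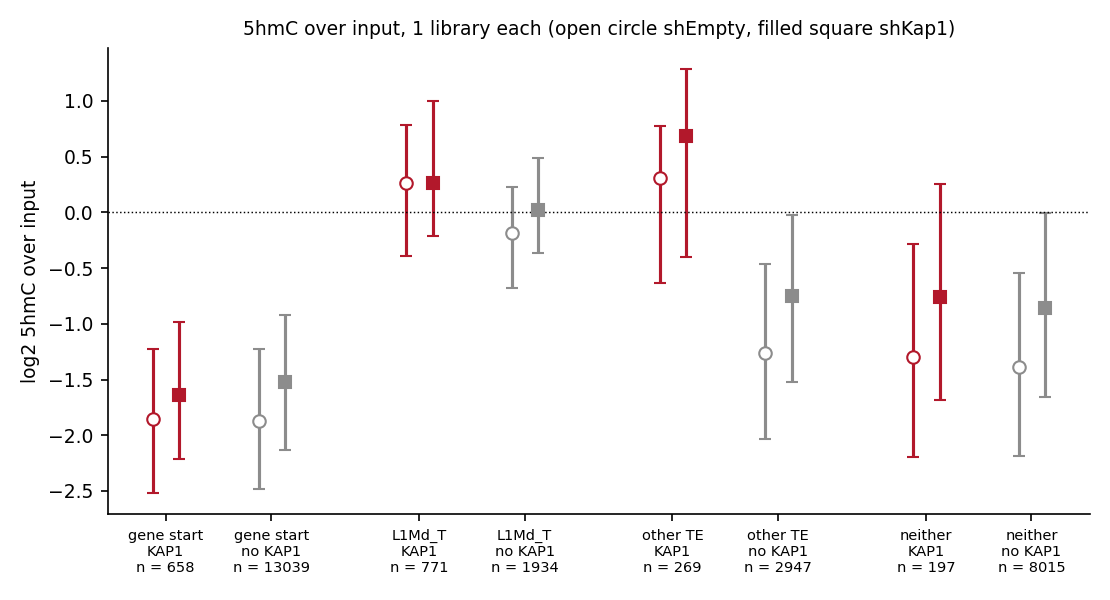
5hmC over input on the log2 scale in WT cells with shEmpty and with shKAP1, by set of H3K4me3 regions, from single hMeDIP libraries. Open circles are shEmpty medians, filled squares shKAP1 medians and lines the quartiles over regions, in red with and in grey without KAP1. KAP1-bound regions on L1Md_T and other TEs stand above 0, and both sets at gene starts stand well below it.

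5hmC was higher with the Kap1 hairpin at most KAP1-bound H3K4me3 regions over ICRs. The deposited ICR set overlapped 18 of the 1899, in 14 of which the difference lay above the median of all H3K4me3 regions (77.8%, against 50.5% of the regions without KAP1). It lay above 0 in 16 (88.9%, against 71.8%), and 5hmC was at least 2-fold higher in 9 of the 18. Their median went from -0.80 to 0.64, a median difference of 1.18 or 0.78 relative to all H3K4me3 regions. At the region over the Airn start on chromosome 17 (12933936 to 12935859), 15 hMeDIP reads against 27 input reads became 76 against 34, a log2 difference of 2.28 (95% counting interval 1.22 to 3.34). Airn is the non-coding RNA that silences Igf2r on the paternal copy. At the larger Peg3 region on chromosome 7 (6682357 to 6683606), 27 against 23 reads became 129 against 36, a difference of 1.93 (interval 0.98 to 2.87). At the Trappc9 region on chromosome 15 (72639711 to 72641421), 32 against 33 reads became 143 against 46, a difference of 1.99 (interval 1.16 to 2.83). These intervals lie above the median difference of all H3K4me3 regions.

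The rest ran from values like these to values near or below 0. Peg10 on chromosome 6 (4697231 to 4698774), a retrotransposon-derived imprinted gene, went from 32 against 32 to 72 against 28 reads, a difference of 1.67 (interval 0.73 to 2.60). The 3 regions over the Gnas cluster were at 1.52, 1.47 and 1.45, and Plagl1, a zinc finger gene, was at 1.57. The Myo10 region had the largest value, 2.95, but only 2 hMeDIP reads with shEmpty and an interval of 0.96 to 4.95. The intervals of all these also lie above 0.39. The Kcnq1ot region was at 0.90, Mest at 0.87 and the IG-DMR of the Meg3 cluster at 0.87, and Snrpn and Inpp5f were both at 0.42. Commd1 (0.09) and Impact (0.07) were near 0, the smaller Peg3 region was at -0.17 and Grb10 at -0.29, all with intervals that span 0. The plot of ICRs shows them in order.

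**Figure D3:**
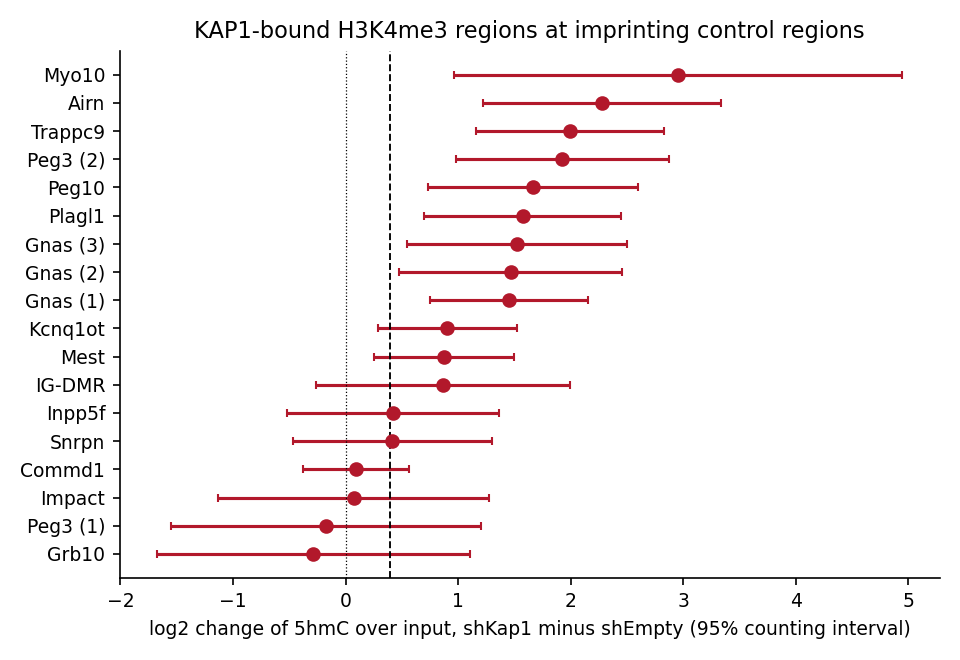
Log2 difference of 5hmC over input between shKAP1 and shEmpty at the 18 KAP1-bound H3K4me3 regions that overlap an ICR, from single libraries in WT cells. Points are the differences, lines are 95% counting intervals, the dashed line marks the median of all H3K4me3 regions (0.39), and a number in parentheses tells apart regions of the same ICR. Myo10, Airn and Trappc9 are at the top and Grb10 at the bottom.

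Outside the ICRs, the largest 5hmC differences among the 1202 members with at least 50 input reads were scattered. An intergenic region with H3K9me3 on chromosome 6 (136417575 to 136419642), printed above, went from 11 hMeDIP against 49 input reads to 56 against 41, a difference of 2.83 (interval 1.76 to 3.91). An L1Md_T region with H3K9me3 on chromosome 11 (7826504 to 7827843) went from 27 against 32 to 118 against 29, a difference of 2.56 (interval 1.63 to 3.49). Others were at a U1 small nuclear RNA gene (2.55), in an intron on chromosome 14 (2.51) and at Dgkq, a diacylglycerol kinase (2.44). These 3 rested on between 1 and 5 hMeDIP reads with shEmpty. The 5 with the largest difference downwards were an L1Md_T region on chromosome 1 (16943054 to 16944188) at -2.16, Mkrn2 at -2.06, a second L1Md_T region on chromosome 1 at -1.82, Tmem191c at -1.61 and an intergenic region near Zfp184 at -1.47. The last pair went from 10 to 4 and from 8 to 4 hMeDIP reads, with intervals that span 0 but end below 0.39, and Mkrn2 from 11 to 2.

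Genes with a KAP1-bound H3K4me3 region within 1000 bp of their start were called up in WT cells about as often as all genes and more often than genes at other H3K4me3 regions. There were 836 such genes, of which 730 had enough reads to test (at least 16 over the 16 RNA libraries). In WT cells 78 of them rose (10.7%) and 33 fell (4.52%) at an edgeR adjusted p below 0.05 and at least 2-fold, beside 10.8% and 6.54% of all 20321 genes tested. Of 13345 tested genes with another H3K4me3 region at the start, 7.81% rose and 6.17% fell. The counts were 61 up and 15 down in DNMT TKO cells, beside 10.1% and 2.42% of all, and in TET TKO cells 57 rose and 25 fell, beside 8.05% and 4.46%. Without shKAP1 replicate 1 of TET TKO, 14 fell there. The shares were 8.36% up in DNMT TKO and 7.81% up in TET TKO cells, against 6.87% and 5.07% of genes at other H3K4me3 regions, and no test of the share was made. Their median log2 fold change was 0.08 in WT, against -0.01 over all genes. With the 25% reciprocal overlap, 61 of 374 tested genes (16.3%) rose in WT. The knockdown effect differed between DNMT TKO and WT for 46 of the 730 (6.30%, beside 7.14% of all genes), in 23 upwards and 23 downwards (beside 4.66% and 2.48%). Between TET TKO and WT it differed for 30 (4.11%, beside 4.21%), in 13 upwards and 17 downwards (beside 2.08% and 2.13%).

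Genes whose start carried KAP1, H3K4me3 and H3K9me3 together responded more often. Of 38 tested, 18 rose in WT (47.4%) and none fell, with a median of 0.94, and 16 rose in TET TKO and 10 in DNMT TKO cells. The knockdown effect was smaller in DNMT TKO than in WT cells, by the test of that difference, for 8 of the 38 (beside 2.48% of all genes), and all 8 were among the 18 that rose in WT. The WT effect is subtracted in that difference, so genes that rose in WT were favoured and this overlap is no separate result. With the replicate block 7 of the 8 were called, since Peg10 had an adjusted p of 0.05002 in edgeR. Of the 18, 15 also rose in TET TKO and 10 in DNMT TKO cells. Without H3K9me3, 60 of 692 tested genes rose in WT (8.67%) and 33 fell. Genes with H3K27me3 at the same region were up in 22 of 87 cases (25.3%, beside 10.8% of all) and down in 8 (9.20%, beside 6.54%) in WT, and up in 26 (29.9%, beside 10.1%) in DNMT TKO cells. Where a member covered a TE near the start, 3 of 68 genes rose and 3 fell in WT (4.41% each).

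Among the genes with H3K9me3 at the start, Zfp629, a zinc finger gene, had 3.17, 3.10 and 3.68 CPM with shEmpty and 27.8, 26.5 and 26.5 CPM with shKAP1 in WT cells. Its RNA rose by 3.02 on the log2 scale (SE 0.16, edgeR adjusted p = 8.11e-11), by 1.73 in DNMT TKO and by 2.19 in TET TKO cells. Lekr1, which encodes a protein rich in leucine, glutamate and lysine, went from 0.555, 0.462 and 0.460 to 3.51, 2.73 and 3.04 CPM in WT cells. It rose by 2.65 there (SE 0.25, adjusted p = 1.52e-07). Its level in DNMT TKO cells was already 2.18, 2.28 and 2.27 CPM with shEmpty and stood at 2.64, 1.65 and 1.89 CPM with shKAP1, groups that overlap. Gm7120 went from 0.722, 0.676 and 0.672 to 4.19, 9.57 and 8.16 CPM in WT, a rise of 3.41 (SE 0.31), and from 0.352 and 0.225 to 16.8 and 16.9 CPM in TET TKO cells, a rise of 5.83. Its value in DNMT TKO cells was 0.98 (adjusted p = 0.0587).

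H2-Q6, a class I histocompatibility gene with close paralogues among which unique reads may be split, went from 0.167, 1.17 and 1.03 to 4.46, 5.50 and 5.81 CPM in WT and rose by 2.63 (SE 0.32). Gm13146 rose by 2.62 (SE 0.34) and belongs with Gm13241, Gm13238, Gm13154 and other gene models of chromosome 4 whose copies resemble each other, so their separate values are uncertain. The starts of Clcn4-2, a chloride transporter, and Atxn1l, a transcriptional regulator, also carried all 3 marks, and both rose in WT, by 2.28 and 2.50. They were named after their values were seen, from the list of 18.

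Of the 10 largest rises in WT, 4 lacked H3K9me3 at the start. Fcgr3, a receptor for the Fc part of IgG, had 0.167, 0.0712 and 0.177 CPM with shEmpty and 1.36, 2.64 and 2.83 CPM with shKAP1 in WT cells, with H3K27me3 over its region. It rose by 4.03 (SE 0.35, edgeR adjusted p = 5.05e-08). In TET TKO cells it stood at 6.56 and 7.14 CPM before and 12.5 and 12.3 CPM after knockdown, a value of 0.86 that was under 2-fold. Epm2a, the glycogen phosphatase laforin, went from 1.55, 1.39 and 1.84 to 11.3, 18.1 and 16.8 CPM and rose in all genotypes, by 3.27, 2.80 and 3.41. Ube2e2, a ubiquitin-conjugating enzyme, rose by 2.80 in WT (SE 0.13) and by 1.5 and 1.38 in DNMT TKO and TET TKO cells. Zfp560, another zinc finger gene, went from 6.55, 5.30 and 5.56 to 36.7, 35.8 and 36.3 CPM in WT, a rise of 2.65 (SE 0.15).

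None of the genes that fell in WT cells had H3K9me3 at the start. Nefm, a neurofilament gene with H3K9me3 that was named after its value was seen, fell by 1.75 in DNMT TKO cells (SE 0.26, edgeR adjusted p = 0.000141). Oas1a, an interferon-induced oligoadenylate synthetase, had 30.4, 35.0 and 34.7 CPM with shEmpty and 1.73, 3.12 and 3.20 CPM with shKAP1 in WT cells. It fell by 3.63 on the log2 scale (SE 0.24, adjusted p = 3.27e-08), and by 1.79 in DNMT TKO and 2.25 in TET TKO cells. Slco4c1, an organic anion transporter, and the gene model Gm5101 start back to back within the same KAP1-bound region of chromosome 1 (98767979 to 98769353), and both fell. Slco4c1 went from 5.33, 4.13 and 4.07 to 0.472, 0.433 and 0.533 CPM, a change of -3.21 (SE 0.19), and Gm5101 from 3.55, 4.09 and 3.22 to 0.524, 0.606 and 0.800 CPM, a change of -2.49 (SE 0.22). Reads were counted by strand, which keeps the pair apart.

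Bai1, an adhesion receptor, fell by 2.78 in WT from 11.6, 9.85 and 10.4 to 1.05, 1.73 and 1.81 CPM and by 2.01 in TET TKO cells, while its value in DNMT TKO cells was 0.01 (SE 0.21). The 10 largest falls in WT, of which Trim28 was one, also held Gm11602 (-2.73), Edil3, an extracellular matrix protein (-2.34), 0610040F04Rik (-2.20), Gfra2, a receptor for neurturin (-1.85), and Pcsk1, a prohormone convertase (-1.74). Edil3 and Pcsk1 also fell in both knockouts. Gm5101, Gm11602, Edil3, 0610040F04Rik and Gfra2 had no more than 5 CPM in any WT library. The plot of genes gives each WT library of the largest rises and falls, with Trim28.

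**Figure D4:**
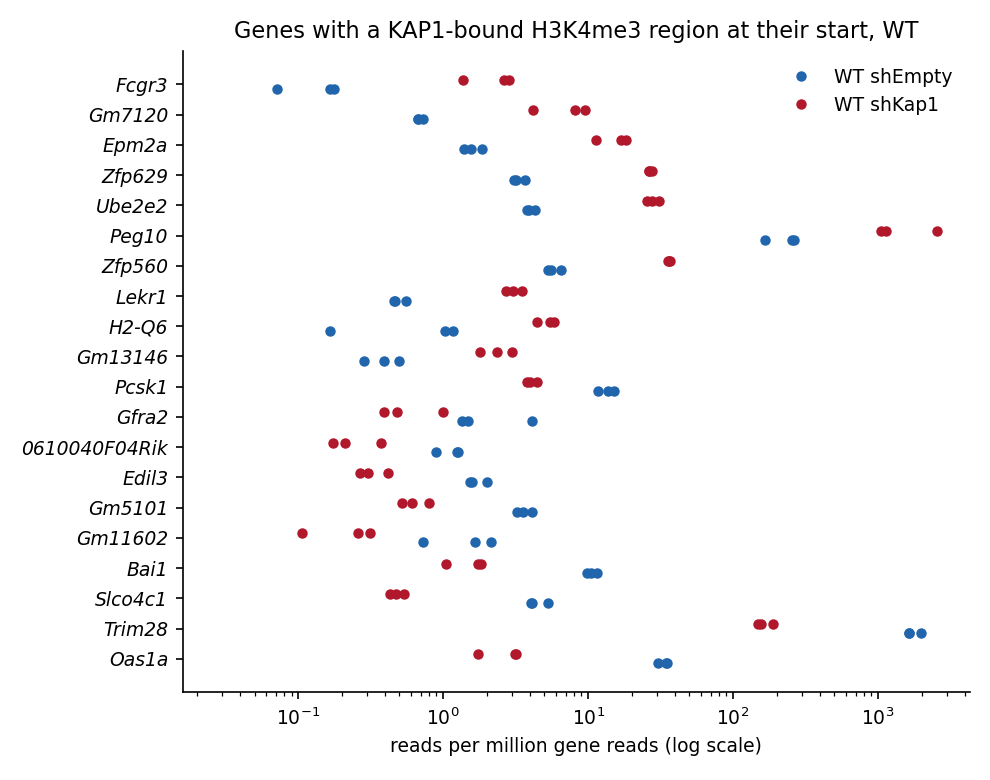
RNA level of the genes with a KAP1-bound H3K4me3 region at their start and the largest rises and falls in WT cells, in CPM on a log axis, by library. Points are the WT libraries, blue with shEmpty and red with shKAP1, 3 of each. The rises and falls were chosen from genes whose WT groups do not overlap, so the separation of blue and red points was set by that choice.

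Imprinted genes were the longest list and had the most members. Of 44 imprinted genes on the list, 40 were tested and 15 rose and 1 fell in WT, beside 10.8% and 6.54% of all genes (median 0.65, against -0.01 over all genes). KAP1-bound H3K4me3 regions lay at 12 of their starts, and 5 of these genes rose, 1 fell and 6 did not pass in WT. Only Peg10 of the 12 rose in DNMT TKO cells, and in TET TKO cells 4 did, beside 10.1% and 8.05% of all genes. Peg10 had 166, 255 and 264 CPM with shEmpty and 2541, 1134 and 1051 CPM with shKAP1 in WT and rose by 2.79 (SE 0.31, adjusted p = 2.57e-05). Its level was lower to begin with in both knockouts. In DNMT TKO cells it stood at 27, 25.0 and 23.6 CPM and reached 60.7, 56.2 and 52.0 CPM. In TET TKO cells it ranged from 35.9 to 39.2 CPM with shEmpty and from 158 to 163 CPM with shKAP1. Sgce, a sarcoglycan gene that starts from the same control region in the opposite direction, went from 2.83, 4.30 and 5.63 to 24.5, 16 and 15.1 CPM in WT, a rise of 2.10 (SE 0.22).

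Peg3, a zinc finger gene, went from 67.5, 56.6 and 52.1 to 148, 125 and 122 CPM in WT, a rise of 1.17 (SE 0.10), and stood at 0.07 in DNMT TKO and 0.24 in TET TKO cells. The effect differed from WT in DNMT TKO cells by -1.10 (edgeR adjusted p = 2.53e-05), and the difference in TET TKO cells was -0.93 (adjusted p = 0.00106), which is under 2-fold. Meg3, a non-coding RNA, went from 309, 264 and 261 to 638, 584 and 565 CPM and rose by 1.10 in WT, with -0.38 in DNMT TKO cells. Airn was near absent with shEmpty in WT, with 1 read over 3 libraries, and had 35 reads with shKAP1, a ratio of 42.7 (95% interval 7.18 to 1735, exact binomial, for counting error only). Nespas, an antisense RNA of the Gnas cluster, fell by 1.11 in WT. Plagl1, whose region had gained 5hmC, stood at 0.25 in WT and Impact at 0.62, and neither passed.

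Of the other lists, few genes had a KAP1-bound H3K4me3 region at the start. Naive pluripotency had 1, Nanog, at 904, 1173 and 1180 CPM against 607, 678 and 658 CPM in WT, a value of -0.75 that was under 2-fold. The DNA methylation list had 2, Tet2 (0.16) and Dnmt3a, which went from 50.8, 66.5 and 71.9 to 172, 125 and 125 CPM and rose by 1.15 in WT (SE 0.13). Polycomb had Jarid2 (-0.24), the p53 targets Cdkn1a (0.41), and the H3K9 methylation machinery, beside Trim28, had Atf7ip (-0.55) and Smarcad1 (-0.48), both under 2-fold. None of the 20 germline, 12 measured 2-cell and 11 measured KRAB zinc finger genes on these lists had one. Of the 2-cell genes, 11 rose in WT all the same. The KRAB list held only 13 names. Zinc finger genes outside it, such as Zfp629 and Zfp560, did have a KAP1-bound H3K4me3 region at the start.

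Members away from gene starts had 1080 nearest genes, of which 515 could be tested. In WT cells 91 of them rose (17.7%) and 34 fell (6.6%), beside 10.8% and 6.54% of all genes. The share that rose was 13% of 123 genes between 1 and 10 kb from the member, 16.3% of 283 between 10 and 100 kb and 26.1% of 119 beyond. The genes nearest to an L1Md_T member rose in 57 of 266 cases (21.4%) in WT and in 59 (22.2%) in DNMT TKO cells, beside 10.8% and 10.1% of all genes. All genes include those with H3K4me3 at their start, and genes nearest to H3K4me3 regions without KAP1 were not counted. Whether these shares are particular to members is therefore not known. The distances in these pairs are long, and a nearest gene is not known to be a target.

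RNA of TEs that overlapped a KAP1-bound H3K4me3 region was counted by integrant, each a single copy in the genome, from uniquely mapped reads. Of 3239 such integrants 1217 had enough reads. In WT cells 216 of them rose (17.7%) and 52 fell (4.27%), beside 12.1% and 2.05% of the 123880 TEs tested. DESeq2 called 115 up and 17 down of the same set. The share of all TEs by DESeq2 is not given here, so these counts cannot be read against the edgeR shares. Of TEs over the other H3K4me3 regions, 2.57% rose and 4.46% fell. In DNMT TKO cells 462 rose (38%) and 6 fell, beside 15% and 0.944% of all, and in TET TKO cells 233 rose (19.1%) and 6 fell, beside 14.7% and 0.971%. Of TEs over the other H3K4me3 regions, 12.2% rose in DNMT TKO and 5.65% in TET TKO cells. The knockdown effect differed between DNMT TKO and WT cells for 198 (beside 1.8% of all) and between TET TKO and WT cells for 78 (beside 1.07%). It was higher in DNMT TKO than in WT cells for 185 (15.2%, beside 1.33% of all) and lower for 13 (beside 0.473%), and higher in TET TKO than in WT cells for 63 (beside 0.831%) and lower for 15 (beside 0.243%). Without shEmpty replicate 1 of TET TKO, 147 rose in TET TKO cells and 45 differed from WT, and without its replicate 2, 47 differed.

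As for genes, integrants at members with H3K9me3 rose more often in WT cells. Of 267 tested integrants at members with H3K9me3, 128 rose in WT (47.9%) and none fell, with a median of 1.89. At members without it 88 of 950 rose (9.26%) and 52 fell (5.47%), with a median of -0.05, beside 12.1% up and 2.05% down of all TEs. Knockdown in DNMT TKO cells raised 142 of the former (53.2%) and 320 of the latter (33.7%), beside 15% of all, and in TET TKO cells 30.3% and 16% rose, beside 14.7%.

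By family, 18 of 27 tested IAPEz integrants rose in WT, 24 in DNMT TKO and 15 in TET TKO cells. Their median of 2.77 in WT was below the 5.58 of all 2550 tested IAPEz, 83.1% of which rose in WT, 95.7% in DNMT TKO and 82.5% in TET TKO cells. Summed over the 28 IAPEz integrants at members, RNA was 30.9, 35.2 and 38.8 CPM with shEmpty and 110, 106 and 99.9 CPM with shKAP1 in WT cells, and 7.52, 9.94 and 10.9 against 101, 116 and 86.2 CPM in DNMT TKO cells. The sums were 9.80 and 10.9 against 16.8 and 18.9 CPM in TET TKO cells, the smallest difference of the 3 genotypes. RLTR4 went the other way by genotype. Of 32 tested, 21 rose in WT, 15 in TET TKO and 8 in DNMT TKO cells, and the effect was smaller in DNMT TKO than in WT cells for 7. All 91 tested RLTR4 had a similar split, with 57.1% up in WT, 48.4% in TET TKO and 20.9% in DNMT TKO cells and 15.4% with a smaller effect in DNMT TKO cells. The sums at members were 19.6, 22.0 and 19.4 CPM against 84.1, 97.2 and 102 CPM in WT, and 45.0, 39.5 and 34.4 CPM against 109, 75.4 and 65.1 CPM in DNMT TKO cells, which began higher.

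All 5 MMERVK10C integrants at members rose in WT, as did 79.6% of the 558 tested in the family. Of 61 ETn and MMETn elements, 15 rose (24.6%), against 62.5% of all tested in that family. L1Md_F had 9 of 17 up in WT (52.9%, against 21.6% of all tested L1Md_F). L1Md_Gf had 4 of 43 up in WT and 23 of 43 in DNMT TKO cells (9.30% and 53.5%, against 4.92% and 36.1% of all tested L1Md_Gf). SINEs were called about as seldom as elsewhere, with 5 of 233 up (2.15%) and 6 down (2.58%) in WT, against 3.51% and 1.93% of all tested SINEs. Their summed level was 138, 143 and 139 CPM with shEmpty and 103, 120 and 120 CPM with shKAP1 in WT cells, which do not overlap.

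L1Md_T differed by H3K9me3, read here over the integrant itself, and by genotype. The 220 integrants at members that overlapped H3K9me3 had summed levels of 53.5, 52.7 and 57.2 CPM with shEmpty and 121, 121 and 125 CPM with shKAP1 in WT cells. In DNMT TKO cells they went from 6.20, 4.97 and 6.25 to 54.3, 66.1 and 53.2 CPM, and in TET TKO cells from 30.7 and 32.9 to 88.5 and 87.0 CPM. The groups were apart in each genotype, and levels with shEmpty were lowest in DNMT TKO cells. Of 149 tested in WT, 62 rose (41.6%, against 8.73% of all tested L1Md_T), with a median of 1.71.

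The 569 L1Md_T integrants at members that lacked H3K9me3 stood higher to begin with, at 377, 335 and 319 CPM in WT cells, and went to 311, 290 and 302 CPM. Per integrant the shEmpty levels were 0.662, 0.590 and 0.561 CPM, against 0.243, 0.239 and 0.260 CPM for those with H3K9me3. CPM is not scaled to length, and 134 of the 220 with H3K9me3 were at least 5 kb long, against 539 of these 569. Of 484 tested, 47 rose (9.71%) and 35 fell (7.23%), with a median of -0.06, against 8.73% and 2.44% of all 6515 tested L1Md_T. In DNMT TKO cells the same integrants went from 39.9, 36.1 and 38.4 to 177, 197 and 173 CPM, and in TET TKO cells from 117 and 113 to 237 and 234 CPM. So the WT sum was lower and the knockout sums were higher with shKAP1, and 257 (53.1%) and 101 (20.9%) of the 484 rose in DNMT TKO and TET TKO cells, against 40.3% and 16.5% of all tested L1Md_T. L1Md_T integrants with KAP1 but no H3K4me3, not split by H3K9me3, rose more often than these 484. Of 536 tested, 56.5% rose in DNMT TKO, 27.6% in TET TKO and 18.5% in WT cells. The effect was higher in DNMT TKO than in WT cells for 7.28% of the 536. The 2010 integrants with H3K4me3 but no member also rose often in DNMT TKO cells, with 700 of 1607 up (43.6%). In WT fewer of them rose than fell, with 34 up (2.12%) and 62 down (3.86%) of the 1607 (median -0.23). The effect was higher in DNMT TKO than in WT cells for 160 of the 633 tested L1Md_T integrants at members (25.3%) and lower for none by edgeR, against 21.3% of those with H3K4me3 but no member and 12.1% of all 6515 tested L1Md_T. At members the share was 15.4% with and 28.3% without H3K9me3. The plot of L1Md_T sums shows each library.

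**Figure D5:**
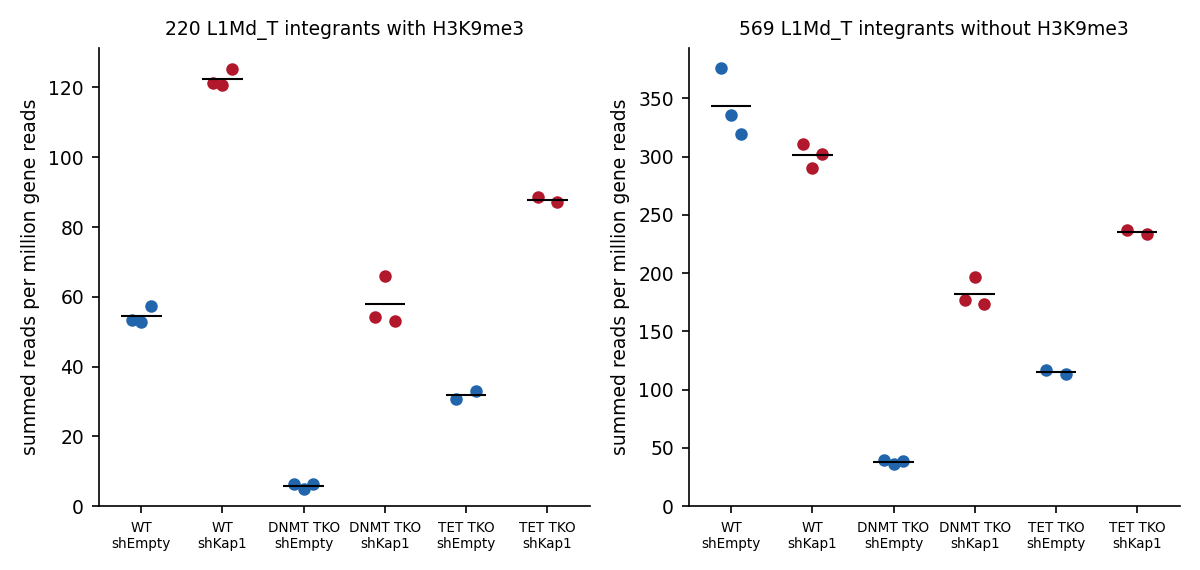
Summed RNA of L1Md_T integrants in CPM by library, for integrants at KAP1-bound H3K4me3 regions with (left) and without (right) H3K9me3 over the integrant, in each genotype. Points are libraries, blue with shEmpty and red with shKAP1, and lines are group means. Without H3K9me3 the WT points lie between 319 and 377 CPM with shEmpty and between 290 and 311 CPM with shKAP1, and the knockout points are higher with shKAP1.

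The printed word of L1Md_T also split by H3K9me3. It was sought in all H3K4me3 regions that overlapped L1Md_T on the assembled chromosomes, those at gene starts included, in the 300 bases around the centre, read in the sense of the element. It was found in 309 of 771 KAP1-bound L1Md_T regions (40.1%) and in 1230 of 1955 others (62.9%). Of KAP1-bound regions with H3K9me3 it was in 21 of 204 (10.3%), and of those without in 288 of 567 (50.8%). The word was picked as the commonest in the KAP1-bound regions, the split was added after its counts were seen, and copies of a subfamily share descent, so these are shares and not a test. The other regions were also centred nearer to the 5′ end, which changes which part of the element the window holds.

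Single integrants reached larger changes. An MMERVK10C internal element on chromosome 9 (4260907 to 4266625) had 0.278, 0.498 and 1.06 CPM with shEmpty and 154, 163 and 155 CPM with shKAP1 in WT cells, and rose by 7.92 (SE 0.41, edgeR adjusted p = 2.05e-08). It rose by 6.21 in DNMT TKO and 4.88 in TET TKO cells. A short RLTR1B-int fragment lies next to it within the same member with H3K9me3, and had 0 reads in the 3 WT shEmpty libraries and 98 with shKAP1. That is at least 39.9-fold higher, taking 3 reads over the group as the floor. By the same floor an IAPEz element on chromosome 2 (116314672 to 116319819) was at least 37.4-fold higher, with 92 reads, and an IAPEz element on chromosome 18 (66909755 to 66915068) at least 16.7-fold higher, with 41 reads. The chromosome 2 element only touches its member (116319807 to 116321059) at its 3′ end, and that member has its largest overlap with L1Md_T. The MMERVK10C element likewise meets its member (4260065 to 4260976) only at its 5′ end. An RLTR4 provirus on chromosome 11 (6649426 to 6658394) had 2 reads with shEmpty and 191 with shKAP1, a ratio of 117 (95% interval 31.8 to 970, exact binomial, for counting error only).

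The integrants that fell most were an MMETn element on chromosome 16 (25517821 to 25521423), at 41.2, 52.8 and 17.8 CPM against 5.61, 2.73 and 4.58 CPM in WT, a change of -3.12 (SE 0.75, edgeR adjusted p = 0.0172). Its call was lost without shEmpty replicate 2 and without shKAP1 replicate 2 or 3, and by limma-voom. The MTD fragment on chromosome 14 (-2.79) and the B4 fragment on chromosome 17 (-2.77) had under 1 CPM in every library, and lost their call without shEmpty replicate 3 and 2 respectively. L1Md_T copies on chromosome 10 (105643578 to 105649639) and chromosome 16 (46642691 to 46649396) fell by 2.68 and 2.41 in WT. The chromosome 10 copy, at 0.722, 2.70 and 1.52 CPM against 0.157, 0.433 and 0.160 CPM in WT, rose by 3.09 in DNMT TKO and 2.94 in TET TKO cells from near 0. None of these 5 members carried H3K9me3.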

How the data were processed

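RNA-seq, hMeDIP-seq and ChIP-seq of J1 ES cells were used as deposited, on mm9. Per the methods and the submitters' processing notes, RNA reads were aligned with HISAT2 2.0.1 by strand and kept when unique. The authors counted reads per gene with featureCounts and per TE integrant, on a track of merged LTRs and internal parts, with bedtools. For hMeDIP, the authors aligned with Bowtie2 2.2.1 and deposited raw counts over their region sets. H3K4me3 peak values are the score deposited by the authors from MACS 1.4, and the methods name SICER for H3K9me3. Unique mapping lowers counts of young, near-identical TE copies.

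The regions and gene lists were chosen with earlier results of these data known. Gene starts were the outermost 5′ ends of the genes in the deposited gene counts. GENCODE for the same build gave exons, introns and the transcript starts used as an alternative. Features whose reads over the 16 libraries came to 16 or more were fitted with edgeR 4.0.16 (R 4.3.3, quasi-likelihood, TMM from genes), with 6 groups in a single fit. A call needed a Benjamini-Hochberg adjusted p below 0.05 and at least 2-fold. 5hmC was log2 of the hMeDIP over the input share of reads, with 1 read added and at least 10 reads over both inputs, where totals were those over all region sets (4590132 and 6522892 for the inputs and 7824611 and 8817570 for the hMeDIP libraries). Intervals of single regions cover counting error only. Scripts were tested on simulated data.

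Named genes were the 10 largest rises and falls in WT with at least 200 reads and groups that do not overlap, the 3 largest differences in each direction between genotypes, and list genes with a KAP1-bound H3K4me3 region at the start. Named TEs were the 5 largest rises and falls with at least 100 reads, and named regions the 5 largest in each direction and all ICRs. The labels number replicates alike in both hairpin groups, and same-numbered WT libraries deviated together over genes (correlations of 0.274, 0.118 and 0.121). For DNMT TKO the same-numbered pairs reached 0.33, 0.174 and 0.078, and for TET TKO both were at -0.004. Replicates 2 and 3 also deviated together across numbers, at 0.103 and 0.121 in WT and 0.113 and 0.177 in DNMT TKO. The correlations therefore do not settle whether libraries are paired by number, and the main fit had no block. Alternatives used limma-voom 3.58.1, DESeq2 1.42.0, the replicate block, other filters, overlaps and scalings, and each library left out. The 4 hMeDIP libraries of replicate 2 were left out because their labels and files disagree on which is the input.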

Additional observations from a re-analysis of the deposited data

Results flagged for a closer look

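Each value here is a difference on the log2 scale between the knockdown effect in a knockout and that in WT cells, for a gene with a KAP1-bound H3K4me3 region at its start, by the edgeR test of that difference. They are the 3 largest in each direction and genotype, and no cause was tested.

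The effect was higher in DNMT TKO cells than in WT for Gm17204 (3.65, adjusted p = 4.24e-05), Gm11602 (3.25, adjusted p = 0.00292) and Pmaip1 (3.09, adjusted p = 1.38e-05). Pmaip1, which encodes the apoptosis factor NOXA, had 50.5, 65.1 and 63.6 CPM with shEmpty and 138, 182 and 181 CPM with shKAP1 in WT cells. It went in DNMT TKO cells from 1.57, 2.93 and 4.4 to 81.1, 75.1 and 62.3 CPM, so the larger fold started from a lower level. It was lower than in WT for Lekr1 (-2.78, adjusted p = 1.38e-05), Loxl4 (-2.52, adjusted p = 0.00173) and Gm7120 (-2.43, adjusted p = 0.00284).

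In TET TKO cells the effect was higher than in WT for Bbs2 (2.69, adjusted p = 4.47e-09), Gm7120 (2.42, adjusted p = 0.0101, a call lost without shEmpty replicate 2 of TET TKO) and Zfp560 (2.35, adjusted p = 9.58e-06). Bbs2, a subunit of the BBSome of cilia, had 21.0, 24.4 and 23.0 CPM against 15.5, 17.1 and 15.9 CPM in WT, and 8.74 and 9.61 CPM against 44.7 and 39.1 CPM in TET TKO cells, where it rose. It was lower than in WT for Loxl4 (-3.78, adjusted p = 0.000123), Fcgr3 (-3.17, adjusted p = 0.00017) and Meis2 (-1.82, adjusted p = 6.51e-07). Loxl4, a lysyl oxidase, rose by 1.68 in WT and fell by 2.10 in TET TKO cells. Meis2, a homeobox factor, went from 30.1, 29.7 and 27.2 to 130, 97.8 and 99.4 CPM in WT and stood at 38.7 and 39.9 CPM against 41.9 and 41.7 CPM in TET TKO cells.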

How the results depend on the processing

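Depth limits the 5hmC of single regions, which often rests on under 50 reads, and no alternative adds a replicate. Leaving out the richest region or scaling to H3K4me3 reads turned the median 5hmC difference of KAP1-bound regions from 0.28 to -0.084 and -0.10, as both shift all regions, and moved the shEmpty median from -0.55 to -0.25 and 0.73. H3K4me3 scaling moved the shKAP1 median from -0.28 to 0.61. Requiring 30 input reads gave -0.70 and -0.39 for these medians, reciprocal overlap -0.18 and -0.020, and high peak scores, which left 917 regions, -1.44 and -1.19. The difference from the other regions, -0.12, was -0.081 with 5 reads added and -0.018 with high peak scores. That between regions with and without H3K9me3, -0.04, turned to 0.022 with 5 reads added. With transcript starts, an alternative added after seeing the data, 38.5% lay at a start. TEs held the centre in 55.0% and covered 25% of 58.6%, against 78.7% with any overlap, and H3K9me3 overlap was 12.2% when reciprocal.

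For RNA, DESeq2 called fewer TEs, with 115 up and 17 down in WT, 292 and 3 in DNMT TKO, 116 and 3 in TET TKO, and 110 and 35 that differed from WT in DNMT TKO and TET TKO, where edgeR called 198 and 78. These DESeq2 counts have no share over all TEs beside them, so they do not show whether members rose more often than all TEs. The 78 became 46 without the filter and 42 by limma-voom, which also called 16 genes down in TET TKO against 25. A fit of DNMT TKO libraries alone called 3 TEs down against 6. The cause was not tested. The fit with the replicate block kept 77 of 78 genes up and 33 of 33 down in WT, and no count of genes or TEs moved by over 1.5 times with it. Of the named genes it ended 1 call, that of Peg10 for DNMT TKO minus WT.

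Leaving out 1 library at a time, genes called ranged from 70 to 82 up and 29 to 34 down in WT, 54 to 62 and 14 to 17 in DNMT TKO, and 43 to 58 and 14 to 33 in TET TKO, with 41 to 53 and 22 to 31 that differed from WT in DNMT TKO and TET TKO. TEs ranged from 176 to 222 up and 38 to 57 down in WT, 358 to 465 and 5 to 10 in DNMT TKO, and 147 to 241 and 1 to 8 in TET TKO, with 159 to 200 and 45 to 85 that differed. Counts moved by over 1.5 times without shEmpty replicate 1 of TET TKO (TEs up 147, TEs that differed 45) or replicate 2 (47), without shKAP1 replicate 1 of TET TKO (genes down 14, TEs down 1), and without shKAP1 replicate 1 of DNMT TKO (TEs down 10). Of the values of named genes and TEs, 248 kept direction and call and 4 lost the call under the other alternatives, 666 kept and 6 lost it with a library left out, and none changed direction.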

Other observations

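The 4 hMeDIP libraries of replicate 2 belong to no group here, and their values are medians over KAP1-bound H3K4me3 regions of log2 reads relative to the shEmpty input of replicate 1. The library labelled as shEmpty input stood at -0.84, the one labelled shEmpty 5hmC at -0.47, the one labelled shKAP1 input at 0.03 and the one labelled shKAP1 5hmC at -0.02. Over the other H3K4me3 regions they stood at -1.91, -1.80, 0.00 and -0.06. At the ICR regions they stood at -1.34, -0.28, 0.11 and 0.07, and on L1Md_T at -0.08, 0.17, 0.07 and 0.04. The pair labelled shEmpty lay further apart over KAP1-bound than over the other H3K4me3 regions, and furthest apart at the ICR regions. If the higher of that pair were the shKAP1 library, KAP1-bound regions would have the larger 5hmC difference, unlike in replicate 1. Which library had which hairpin was not settled, so the order of sets in replicate 1 remains unchecked.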
